A study of Mus musculus with 4 samples.

Results

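Spermatogonia, the mitotic germ cells at the base of the seminiferous tubule, divide to keep a stem cell pool and also supply cells that differentiate and enter meiosis. Stem and progenitor cells rely on glial cell line-derived neurotrophic factor (GDNF), which signals through the receptor Ret, and on factors such as Zbtb16 and Lin28a. Differentiation is marked by the receptor Kit, whose ligand comes from Sertoli cells, and by transcription factors such as Sohlh1 and Dmrtb1. The data here are the transcripts of 8 such genes, Zbtb16, Ret, Lin28a, Lhx1, Kit, Sohlh1, Ccnd2 and Dmrtb1, chosen by gene symbol from the authors' table of transcripts that differ between genotypes. They have 10 transcripts of the 11304 in that table, 2 each for Zbtb16 and Kit and 1 for each of the other genes.

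RNA was sequenced from the left testis of Ppp2ca-cKO mice (genotype Ppp2ca-/-, 2 libraries) and of wild-type (WT) mice (2 libraries), all C57BL/6 at postnatal day 56. Ppp2ca encodes a catalytic subunit of the phosphatase PP2A, and the series asks how it bears on the start of meiosis. The promoter that drives the deletion, and so the cells it reaches, is not given in the sources used here. Ppp2ca itself has 0 of the 11304 transcripts in the table, so its level could not check the genotype labels.

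Library totals were 18684258 and 19834951 reads in the cKO and 17612156 and 19783785 in the WT. Levels are given as FPKM, which scales reads by transcript length and library total. Changes are given as log2 fold changes of normalized counts, cKO over WT, which are expected counts divided by the authors' size factors. The 2 scales differ, because library totals in place of size factors move every cKO over WT log2 ratio by 0.53. A transcript is said to rise or fall where edgeR's quasi-likelihood test gave an adjusted p under 0.05 over all 64840 transcripts the authors tested. In bulk testis RNA, fewer cells of a type and less RNA per cell cannot be told apart.

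Both listed Kit transcripts encode the full-length receptor. They have 21 exons each, of which 19 are identical, and lie on the plus strand of chromosome 5 (75574916 to 75656722 for ENSMUST00000144270 and 75574955 to 75656722 for ENSMUST00000005815, GRCm38). Their start sites are 39 bases apart, and exon 9 of ENSMUST00000005815 is 12 bases longer at its end. The 12 coding bases, at 75639147 to 75639158, are the known difference between the GNNK+ and GNNK- forms of the receptor, which differ in the part outside the membrane. The sequences below run from 36 bases before that point to 36 bases into exon 10 and are shown because they are the only coding difference that separates the Kit isoforms. The capitals mark the 12 bases.
ENSMUST00000005815: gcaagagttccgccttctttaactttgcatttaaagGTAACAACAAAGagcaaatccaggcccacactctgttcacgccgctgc
ENSMUST00000144270: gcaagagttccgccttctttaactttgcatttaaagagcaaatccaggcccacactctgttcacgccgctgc

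Apart from these, GENCODE vM21 annotates 6 Kit transcripts with retained introns, and none of them is in the table. The short Kit form of haploid germ cells, which starts within the gene, was therefore not analysed here.

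RefSeq promoters were at hand for 5 of the 8 genes. The windows below run from 250 to 76 bases upstream of the RefSeq start on the gene's strand (GRCm38.p6) and hold no annotated exon of the gene. They are shown for Kit, Sohlh1 and Lin28a, the genes with a promoter at hand whose levels were higher in both cKO libraries. None of their listed transcripts passed the edgeR test singly, and no link between the windows and these levels was tested. Capitals mark the E-box, CANNTG, the motif family that basic helix-loop-helix factors such as Sohlh1 bind.
Kit, chr5:75574737-75574911, plus strand: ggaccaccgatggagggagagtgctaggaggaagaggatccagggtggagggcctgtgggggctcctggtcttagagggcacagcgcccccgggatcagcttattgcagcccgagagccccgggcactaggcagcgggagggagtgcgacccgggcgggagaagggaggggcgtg
Sohlh1, chr2:25847324-25847498, minus strand: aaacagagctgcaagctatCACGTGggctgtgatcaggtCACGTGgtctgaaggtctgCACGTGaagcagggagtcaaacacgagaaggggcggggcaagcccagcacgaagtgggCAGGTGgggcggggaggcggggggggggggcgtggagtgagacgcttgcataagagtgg
Lin28a, chr4:134018892-134019066, minus strand: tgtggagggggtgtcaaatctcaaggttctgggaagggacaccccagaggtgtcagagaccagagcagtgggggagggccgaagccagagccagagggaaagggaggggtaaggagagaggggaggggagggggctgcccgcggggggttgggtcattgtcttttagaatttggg

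The Sohlh1 window held 4 E-boxes, 3 of them with the letters CACGTG, while the Kit and Lin28a windows held 0 each. Of the windows not printed, that of Dmrtb1 held 2 E-boxes and that of Lhx1 held 0, with 0 CACGTG in both. The Lhx1 window (chr11:84525610-84525784) is not at the start of the listed Lhx1 transcript, which begins inside the gene at 84522331. Unlike the printed windows, that of Dmrtb1 overlaps 1 annotated exon of its gene. Kit and Dmrtb1 have 2 promoter entries each, of which 1 was scanned. Since CANNTG and CACGTG read the same on both strands, each match was counted once, and every CACGTG is also an E-box. Of 27025 promoter windows of 175 bases, one per gene, 54.5% held an E-box, 1.33% held 4 or more and 3.56% held CACGTG. The form CACGTG and the count of 4 were looked up after the Sohlh1 window had been seen.

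Over the 10 transcripts, 8 were higher and 2 lower in both cKO libraries, while 33.1% of all listed transcripts were higher and 66.9% lower in the authors' deposited table. Ccnd2 rose, Dmrtb1 and the listed Lhx1 transcript fell, and the other 7, of Zbtb16, Ret, Lin28a, Kit and Sohlh1, had positive log2 fold changes between 1.31 and 2.76 that did not pass. That is 1 of 10 higher and 2 of 10 lower, against 10.4% higher and 41.4% lower of the 10716 transcripts tested. The authors' deposited table called all 10, with adjusted p-values between 2.64e-08 for Dmrtb1 and 0.0219 for ENSMUST00000005815 of Kit, since being called was the condition for being listed. The values of the genotypes did not overlap for any of the 10, which held for 100% of the listed transcripts (11302 of 11304) and so says nothing particular to these genes.

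**Figure D1:**
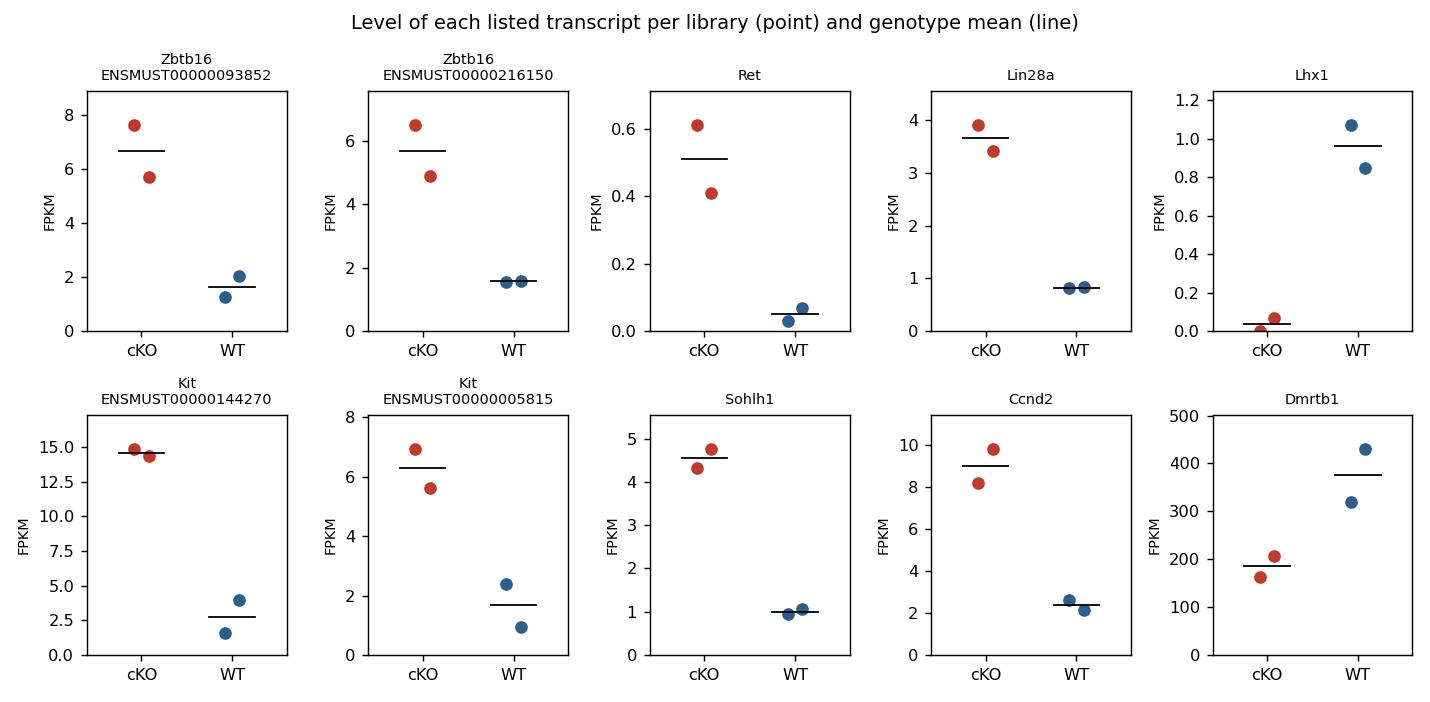
FPKM of each listed transcript, with 1 point per library (2 cKO libraries in red on the left, 2 WT libraries in blue on the right) and a line at the genotype mean; each panel has its own linear axis from 0. The cKO points lie above the WT points in 8 panels and below them for Lhx1 and Dmrtb1, and the axis of Dmrtb1 reaches 430.25 FPKM at its highest point, against 14.87 FPKM for ENSMUST00000144270 of Kit.

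Among the stem and progenitor factors, Zbtb16, a zinc finger repressor needed in the mouse to keep the stem cell pool, has 2 listed transcripts on the minus strand of chromosome 9. They share 5 of 7 exons and all 6 coding segments and differ in the first exon and in the length of the last, with 5114 bases in ENSMUST00000093852 and 2505 in ENSMUST00000216150. The longer transcript had 7.63 and 5.72 FPKM in the cKO libraries, against 1.26 and 2.03 FPKM in the WT libraries. The shorter one had 6.50 and 4.90 FPKM in the cKO libraries, against 1.56 and 1.60 FPKM in the WT libraries. Both were higher in each cKO library than in either WT library, and in the cKO both were higher in replicate 1. Their log2 fold changes of normalized counts were 1.47 ± 0.38 SE (adjusted p = 0.0823) and 1.31 ± 0.35 SE (adjusted p = 0.0875), and neither passed.

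The longer Zbtb16 transcript made up 54.0% and 53.9% of the gene's listed FPKM in the cKO libraries and 44.7% and 55.9% in the WT libraries. The cKO shares lie between the 2 WT shares. With both transcripts summed, Zbtb16 had 14.1 and 10.6 FPKM in the cKO and 2.82 and 3.63 FPKM in the WT, and the log2 fold change was 1.42 ± 0.31 SE (adjusted p = 0.0612).

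Ret, the signalling receptor for GDNF, was close to the lower end of detection. The expected counts were 59.7 and 42.4 in the cKO libraries and 2.55 and 7.25 in the WT libraries, or 0.61 and 0.41 FPKM in the cKO and 0.03 and 0.07 FPKM in the WT. The cKO libraries were both higher, and the 2 WT libraries differed from each other by more than the cKO libraries did, in proportion. The log2 fold change of normalized counts was 2.76 ± 0.62 SE, the highest of the 8 positive ones, and did not pass (adjusted p = 0.0573). From the rounded counts, 102 in the cKO and 10 in the WT, the ratio after size factors was 6.85 (exact 95% binomial interval 3.58 to 14.7, counting error only).

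Lin28a, an RNA-binding protein that blocks maturation of the let-7 microRNAs and marks undifferentiated spermatogonia in the mouse, lies on chromosome 4 (134003330 to 134018841). It had 3.90 and 3.41 FPKM in the cKO libraries, against 0.81 and 0.83 FPKM in the WT libraries. The replicates of each genotype lay close together, and the groups were well apart. The log2 fold change of 1.62 ± 0.35 SE missed the threshold (adjusted p = 0.0506). With isoforms summed per gene across the whole table, the estimate was the same, 1.62 ± 0.32 SE, and passed (adjusted p = 0.0461), but not without WT replicate 1 (0.29) or WT replicate 2 (0.263) or with equal Sertoli counts (0.34 ± 0.33 SE, adjusted p = 1). The predicted gene Gm13061 overlaps Lin28a on the other strand, and the sources used here do not say whether strand was used in counting.

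Lhx1, a LIM homeobox factor that GDNF induces in cultured mouse spermatogonial stem cells, went the other way. Only ENSMUST00000184646 is listed (chromosome 11, 84519442 to 84522331, minus strand), a model of 1201 bases that starts inside the gene, and the other 3 annotated Lhx1 transcripts were not analysed here. It had 0 and 0.07 FPKM in the cKO libraries, against 1.07 and 0.85 FPKM in the WT libraries. These rest on expected counts of 0 and 1.4 in the cKO and 18.7 and 16.3 in the WT, so both cKO libraries were at or near 0. The transcript fell, with a fitted log2 fold change of -5.34 ± 0.88 SE (adjusted p = 0.0289), which was -7.36 without cKO replicate 2 and -4.51 without cKO replicate 1. From rounded counts of 1 in the cKO and 35 in the WT, the ratio after size factors was 0.0192, with an exact 95% binomial interval of 0.000473 to 0.114 that covers counting error only.

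Among the differentiation factors, Kit, the receptor for stem cell factor, had the highest level of the 7 genes other than Dmrtb1. The transcript without the 12 bases, ENSMUST00000144270, had 14.87 and 14.33 FPKM in the cKO libraries, against 1.58 and 3.94 FPKM in the WT libraries. The transcript with them, ENSMUST00000005815, had 6.94 and 5.64 FPKM in the cKO libraries, against 2.39 and 0.95 FPKM in the WT libraries. The cKO libraries were alike in both transcripts, while the 2 WT libraries ranked the isoforms in opposite order. Since the 2 transcripts share 19 of 21 exons, most reads fit both, and the expected counts are an estimated split of shared reads. The error of that split was not estimated, so the level and share of each isoform are less certain than their sum. The log2 fold changes were 1.85 ± 0.49 SE (adjusted p = 0.0883) for ENSMUST00000144270 and 1.40 ± 0.47 SE (adjusted p = 0.169) for ENSMUST00000005815, and neither passed. Without WT replicate 1 they were 1.31 and 2.14, and without WT replicate 2 they were 2.72 and 0.91.

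The form without the 12 bases made up 68.2% and 71.8% of the listed Kit FPKM in the cKO libraries, and 39.8% and 80.6% in the WT libraries. The WT shares lie on either side of the cKO shares, so no shift of isoform use was detectable (70.0% ± 2.53 in the cKO and 60.2% ± 28.8 in the WT, SD, n = 2 each; exact two-sided permutation p = 1, and 0.333 is the smallest p that 2 against 2 libraries can give). The sum of both isoforms was steadier, at 21.8 and 19.97 FPKM in the cKO libraries and 3.97 and 4.89 FPKM in the WT libraries. It rested on 2046 and 1978 expected counts in the cKO and 350 and 485 in the WT. Summed, Kit rose by 1.70 ± 0.25 SE on the log2 scale of normalized counts (adjusted p = 0.0233), a sum chosen after seeing the data. That call was lost with equal Sertoli counts, where the log2 fold change was 0.42 ± 0.24 SE (adjusted p = 1), and without WT replicate 1 (1.51, adjusted p = 0.212) or WT replicate 2 (1.92, adjusted p = 0.14).

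**Figure D2:**
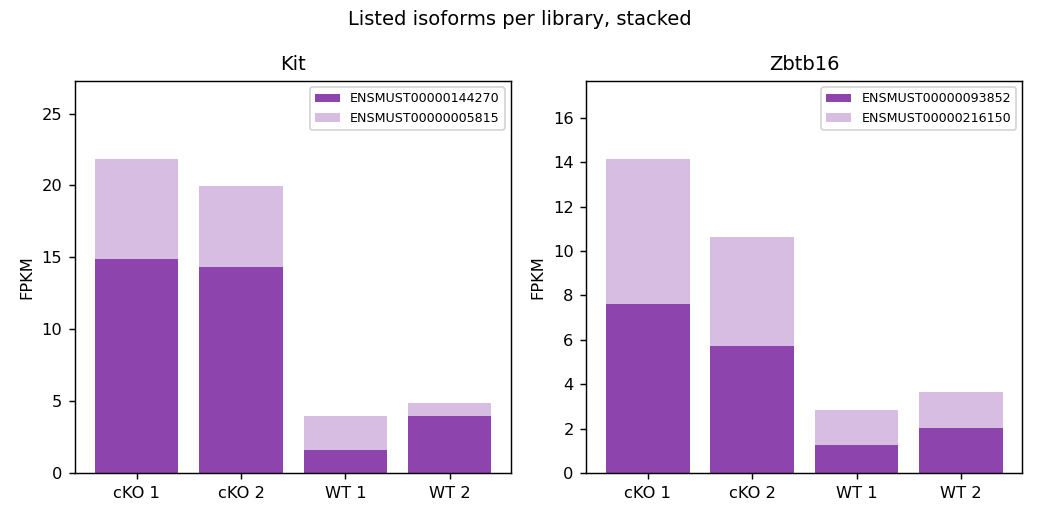
Listed isoforms of Kit and Zbtb16 as stacked FPKM bars from 0, with the 2 cKO libraries on the left and the 2 WT libraries on the right of each panel. The height of the Kit bars is 19.97 to 21.8 FPKM in the cKO and 3.97 to 4.89 FPKM in the WT, while the dark part, the form without the 12 bases, is the smaller part in WT replicate 1 and the larger part in the other libraries.

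Sohlh1, the basic helix-loop-helix factor whose promoter is printed above (gene on chromosome 2, 25842995 to 25847248), had 4.33 and 4.76 FPKM in the cKO libraries, against 0.95 and 1.05 FPKM in the WT libraries. The groups were apart and the replicates close, on expected counts of 87 and 99 in the cKO and 18 and 22 in the WT. The log2 fold change was 1.64 ± 0.44 SE and did not pass (adjusted p = 0.091).

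Ccnd2, a D-type cyclin that partners the kinases Cdk4 and Cdk6 at the start of the cell cycle and appears in the mouse as spermatogonia begin to differentiate, was the 1 single transcript that rose with the authors' size factors. The listed transcript (chromosome 6, 127125162 to 127151060, minus strand) had 8.22 and 9.83 FPKM in the cKO libraries, against 2.62 and 2.16 FPKM in the WT libraries. Both cKO libraries were above both WT libraries, and the log2 fold change was 1.39 ± 0.27 SE (adjusted p = 0.0412). Its fold of 2.63 was among the smaller ones here, and its SE was the smallest of the 8 positive transcripts. The genes 9330179D12Rik and Gm43126 overlap Ccnd2 on the other strand.

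Dmrtb1 (also called DMRT6), a doublesex-domain factor that coordinates the passage from mitosis to meiosis in mouse spermatogonia, stood apart in level and in direction. Its listed transcript (chromosome 4, 107676290 to 107683580, minus strand) had 162.71 and 207.48 FPKM in the cKO libraries, against 319.86 and 430.25 FPKM in the WT libraries. Both cKO libraries were below both WT libraries. The listed model starts inside the gene, and the other 2 annotated Dmrtb1 transcripts were not analysed here. The transcript fell, with a log2 fold change of -1.56 ± 0.29 SE (adjusted p = 0.0366).

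Per length and over listed transcripts only, Dmrtb1 was thus the most abundant member in both genotypes. In the cKO it was followed by Kit (20.9 FPKM ± 1.30), Zbtb16 (12.4 ± 2.48), Ccnd2 (9.03 ± 1.14), Sohlh1 (4.54 ± 0.304), Lin28a (3.66 ± 0.346), Ret (0.51 ± 0.141) and Lhx1 (0.035 ± 0.0495), as summed FPKM with SD and n = 2. In the WT the order was Dmrtb1 (375 FPKM ± 78.1), Kit (4.43 ± 0.651), Zbtb16 (3.23 ± 0.573), Ccnd2 (2.39 ± 0.325), Sohlh1 (1.00 ± 0.0707), Lhx1 (0.96 ± 0.156), Lin28a (0.82 ± 0.0141) and Ret (0.05 ± 0.0283). The 2 orders are alike except for the place of Lhx1. Not in these sums are 2 of 3 annotated transcripts of Dmrtb1, 7 of 8 of Ccnd2, and 3 of 4 of Lin28a and of Lhx1. The same holds for 1 of 2 of Ret and 6 of 8 of Kit. In the WT, the libraries of Sohlh1 and Lhx1 overlapped, and those of the other neighbours did not; in the cKO no neighbours overlapped.

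Ratios of 2 genes within a library do not depend on how libraries are scaled. The ratio of Dmrtb1 to Kit in summed FPKM was 7.46 and 10.4 in the cKO libraries, against 80.6 and 88.0 in the WT libraries. The ratio of Dmrtb1 to Sohlh1 was 37.6 and 43.6 in the cKO libraries, against 337 and 410 in the WT libraries. The listed Dmrtb1 transcript was therefore lower relative to Kit and to Sohlh1 in each cKO library (for Dmrtb1 over Kit, exact two-sided permutation p = 0.333, the smallest possible here). The authors' filter fixed that direction beforehand. Dmrtb1 was listed as lower (authors' log2 fold change -1.54), and Kit (1.78 and 1.35) and Sohlh1 (1.58) as higher. The ratios thus give the size of the gap and no separate support for it.

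Most positive members stood in similar proportions to each other in both genotypes. The ratio of Kit to Zbtb16 was 1.54 and 1.88 in the cKO libraries and 1.41 and 1.35 in the WT libraries. The ratio of Sohlh1 to Kit was 0.199 and 0.238 in the cKO libraries and 0.239 and 0.215 in the WT libraries, and the ratio of Lin28a to Zbtb16 was 0.276 and 0.321 in the cKO libraries and 0.287 and 0.229 in the WT libraries. The genotypes overlap in the Sohlh1 to Kit and Lin28a to Zbtb16 ratios, and Kit over Zbtb16 was slightly higher in both cKO libraries. Ret over Zbtb16 was 0.0432 and 0.0386 in the cKO libraries, against 0.0106 and 0.0193 in the WT libraries, on fewer than 10 expected counts of Ret in each WT library.

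How many members passed moved with the scaling. With TMM or RLE scaling of the listed transcripts, which move cKO over WT ratios up by 1.52 and 1.56 on the log2 scale, all 8 positive transcripts rose and Dmrtb1 and Lhx1 did not pass (Dmrtb1 log2 fold change -0.04 under TMM, adjusted p = 1). Both methods take most transcripts as unchanged, while every listed transcript was called different by the authors and 66.9% were lower in the cKO. Neither was therefore used as the main scaling. With library totals, 7 rose, all but ENSMUST00000005815 of Kit, and Lhx1 fell. With equal counts of Sertoli markers, which move the ratios by -1.28, 0 of 10 rose in edgeR, with 0 at an unadjusted p under 0.05, and Dmrtb1 (-2.84) and Lhx1 (-6.53) fell. That shift is set by 15 listed markers, all with positive log2 fold changes. Over the whole table, 1119 transcripts rose and 4436 fell with the authors' size factors, 3641 and 1295 with TMM, 3650 and 1301 with RLE, 2963 and 3238 with library totals, and 320 and 7397 with equal Sertoli counts. In none of these 5 scalings did the sign of a member change.

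**Figure D3:**
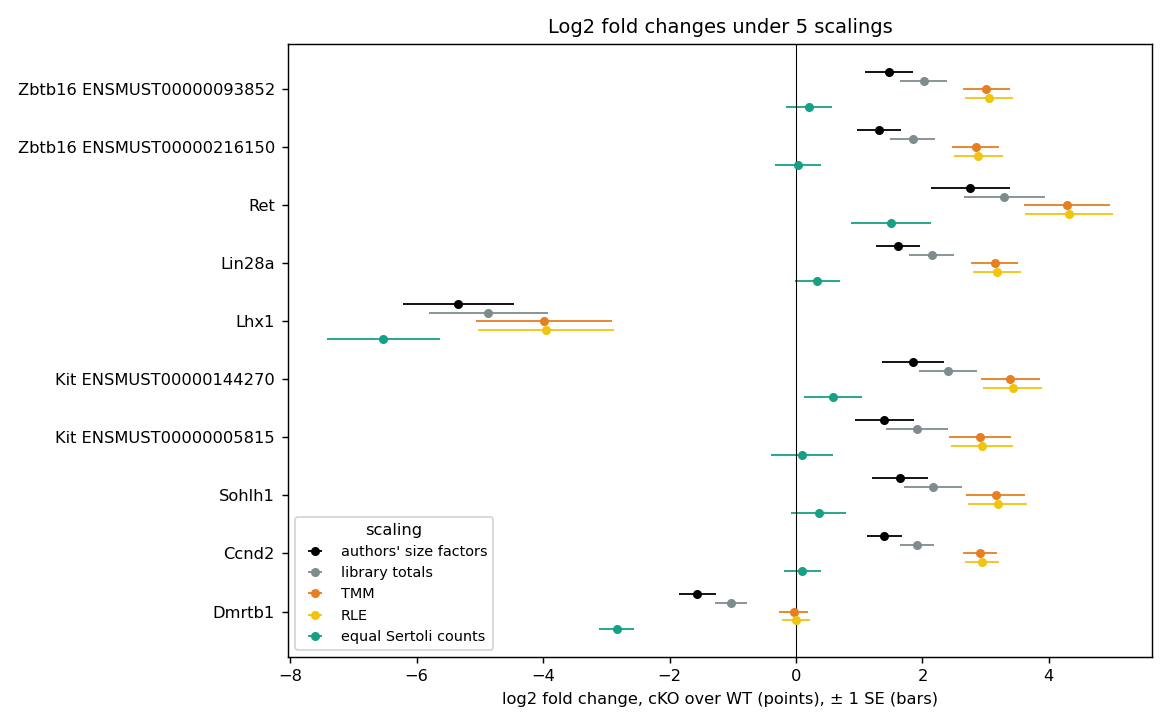
Log2 fold change of normalized counts, cKO over WT, for the 10 transcripts under 5 scalings (points, with bars of 1 SE). With equal Sertoli counts the 8 positive transcripts lie between 0.03 and 1.51, and Dmrtb1 lies at -2.84 there and at -0.04 with TMM.

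Leaving out WT replicate 1 or WT replicate 2 ended the calls of Ccnd2 (adjusted p = 0.258 and 0.309), Dmrtb1 (0.178 and 0.25) and Lhx1 (0.25 and 0.225), in fits that called 0 transcripts of the whole table (8351 and 8343 had an unadjusted p under 0.05). Without cKO replicate 1, Ccnd2, Lin28a and ENSMUST00000144270 of Kit rose. Without cKO replicate 2, 7 transcripts rose, all positive ones but Sohlh1, and Dmrtb1 and Lhx1 fell in both of these fits. In each fit the genotype with 1 library left is assumed to vary like the other, so that the spread behind the calls without a cKO library comes from the 2 WT libraries alone. The log2 fold change of Ret was 2.31 without WT replicate 1 and 3.44 without WT replicate 2.

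Markers of somatic cells moved with the positive members. The summed FPKM of the lead transcripts (the most abundant listed transcript of a gene) of the 15 listed Sertoli markers, of 20, was 2477 and 2735 in the cKO libraries and 705 and 762 in the WT libraries. For the 9 listed Leydig markers, of 12, it was 877 and 1187 in the cKO and 185 and 167 in the WT, and for the 7 listed leukocyte markers, of 10, it was 125 and 124 in the cKO and 23.9 and 24.0 in the WT. The 10 round spermatid markers went the other way, with 123 and 188 in the cKO and 866 and 1030 in the WT. Of 6 general germ cell markers 2 are listed, of which the piRNA factor Mael fell (-1.20 ± 0.22 SE, adjusted p = 0.0351) and the demethylase Kdm1b was at 1.07 ± 0.31 SE (adjusted p = 0.109). Kit is also made by Leydig cells and mast cells, and 0 of 8 mast cell markers were among the listed transcripts. The part of these cell types in the members' values was not tested.

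Set against the Sertoli markers within each library, the positive members differed less between the genotypes. This follows in part from the markers used. All 15 are transcripts that the authors called different, and all 15 had positive log2 fold changes. By construction, dividing by them lowers every cKO over WT ratio, of positive and negative members alike. Kit had 8.80 and 7.30 FPKM per 1000 FPKM of Sertoli markers in the cKO libraries and 5.63 and 6.42 in the WT libraries. Sohlh1 had 1.75 and 1.74 in the cKO and 1.35 and 1.38 in the WT, and Lin28a had 1.57 and 1.25 in the cKO and 1.15 and 1.09 in the WT. Kit, Sohlh1, Lin28a and Ret had higher values in both cKO libraries, while Zbtb16 (5.70 and 3.88 in the cKO, 4.0 and 4.77 in the WT) and Ccnd2 (3.32 and 3.59 in the cKO, 3.72 and 2.84 in the WT) overlapped between the genotypes. However, with equal Sertoli counts in edgeR, 0 of 10 member transcripts rose, and 0 were higher at an unadjusted p under 0.05. No rise was thus detected on that scale, which is set by listed markers that were all higher in the cKO. It therefore cannot show whether the members changed relative to Sertoli cells. Ret rests on 2.55 and 7.25 expected counts in the WT libraries. The share of all listed transcripts that lie apart on this scale was not counted. Dmrtb1 had 65.7 and 75.9 per 1000 in the cKO and 454 and 565 in the WT, a wider gap than in FPKM.

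**Figure D4:**
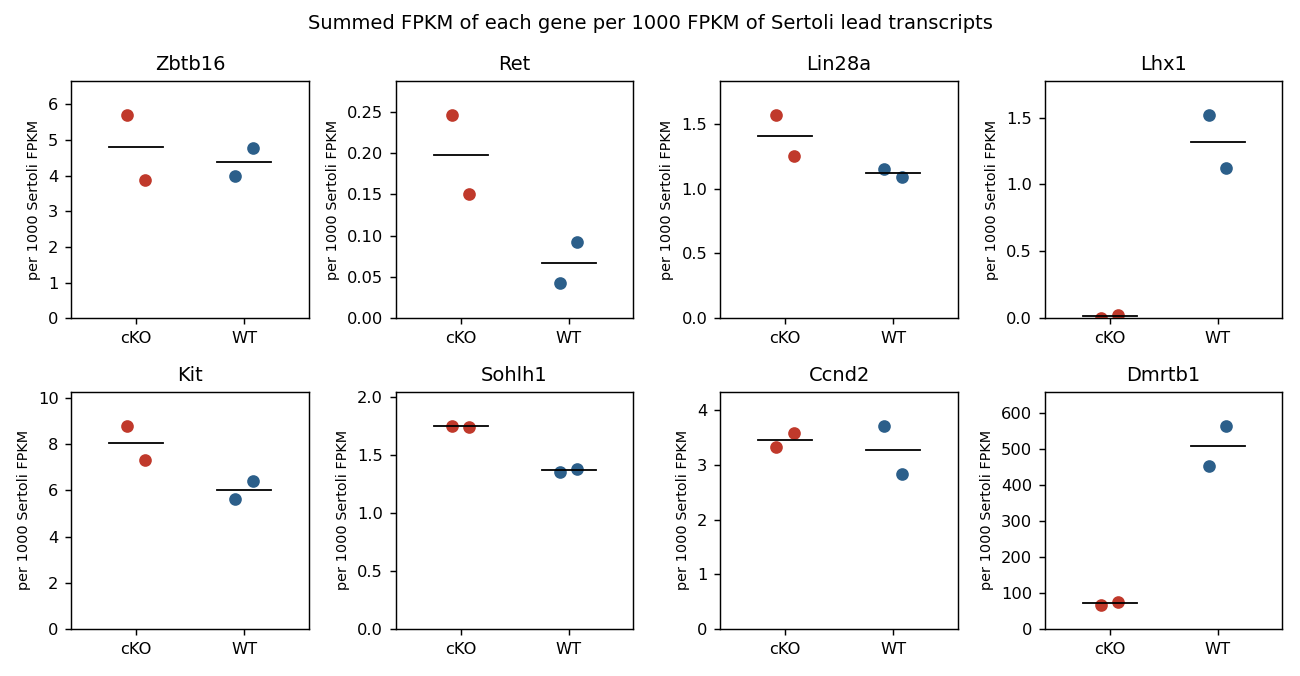
Summed FPKM of the listed transcripts of each gene per 1000 FPKM of Sertoli lead transcripts in the same library, with 1 point per library (cKO in red on the left, WT in blue on the right), a line at the genotype mean, and linear axes from 0. The genotypes overlap for Zbtb16 and Ccnd2, and Dmrtb1 and Lhx1 are lower in both cKO libraries.

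Other genes of the stem and progenitor state were compared over a list of 29, of which 7 are listed and 6 were tested. Itga6, the integrin subunit used to enrich spermatogonial stem cells, rose by 1.61 ± 0.29 SE on the log2 scale (adjusted p = 0.0343), and the stress-induced mTOR inhibitor Ddit4 rose by 1.43 ± 0.29 SE (adjusted p = 0.045). Pou5f1, a pluripotency factor, fell to 0.70 and 0.54 FPKM in the cKO libraries, against 2.17 and 2.65 FPKM in the WT libraries (-2.49 ± 0.50 SE, adjusted p = 0.0424). The forkhead factor Foxo1 (1.12 ± 0.26 SE, adjusted p = 0.0586) and the zinc finger factor Sall4 (1.14 ± 0.36 SE, adjusted p = 0.147) did not pass. The listed lead transcript of Eomes was below the count filter, with 0 in both cKO libraries and 11 and 9.37 normalized counts in the WT libraries. Over all 7114 lead transcripts tested, 11.2% rose and 39.8% fell. The median over them was -1.44 on the log2 scale, against 1.13 for this list and 1.54 for the lead transcripts of the 8 members. The size of these medians follows in part from the authors' filter, which kept only transcripts that changed by 1 or more, up or down. A list with mostly positive values therefore has a median near 1 or above, so the medians show little beyond which sign was more common.

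Of 20 other differentiation genes, 12 are listed and tested, of which 0 rose in edgeR and 3 fell. Their log2 fold changes were positive in 7 and negative in 5, with a median of 1.07, and the unadjusted p was under 0.05 in all 12, as it was for 10713 of the 10716 transcripts tested, since the table lists only called transcripts. The cyclin Ccnd3 fell to 9.82 and 15 FPKM in the cKO libraries, against 27.56 and 31.09 FPKM in the WT libraries (-1.77 ± 0.33 SE, adjusted p = 0.0359), so that the listed lead transcripts of Ccnd2 and Ccnd3 moved in opposite directions. Tex13a, a germ cell gene of the X chromosome, fell by 2.61 ± 0.48 SE on the log2 scale (adjusted p = 0.0353). The listed lead transcript of Nxf2, an RNA export factor, was at 0 in both cKO libraries and at 26.1 and 111 normalized counts in the WT libraries. It was at least 56.8-fold lower (bound at 3 counts over the cKO libraries, edgeR adjusted p = 0.044). That bound was 21.6 without WT replicate 2, 92 without WT replicate 1, and 28.5 and 28.3 without cKO replicates 1 and 2. Dmrt1, a relative of Dmrtb1 that holds back meiotic entry in the mouse, was at 1.05 ± 0.28 SE (adjusted p = 0.0894). Stra8, a retinoic acid-induced gene of meiotic entry, was at 1.15 ± 0.34 SE (adjusted p = 0.12).

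Among 20 ligands and receptors of the spermatogonial niche, 10 are listed and tested, of which 3 rose and 1 fell (median 1.60). Kitl, the ligand of Kit, had 18.82 and 9.69 FPKM in the cKO libraries, against 4.13 and 2.47 FPKM in the WT libraries, and did not pass (1.58 ± 0.41 SE, adjusted p = 0.084). Gfra2, a co-receptor of Ret, fell to 0.88 and 1.33 FPKM in the cKO libraries, against 6.82 and 8.69 FPKM in the WT libraries (-3.34 ± 0.40 SE, adjusted p = 0.0183). Ret and the lead transcript of Gfra2 thus had opposite signs in these libraries. The chemokine Cxcl12 rose by 1.61 ± 0.33 SE (adjusted p = 0.0458), as did the macrophage receptor Csf1r by 1.76 ± 0.28 SE (adjusted p = 0.0275). The listed transcript of the retinoic acid receptor Rara was at 205 and 100 normalized counts in the cKO libraries and at 0 in both WT libraries, at least 84.9-fold higher with 3 counts over the WT libraries (adjusted p = 0.0217). That bound was 55.7 without cKO replicate 1, and 43.4 and 41.5 without WT replicates 1 and 2. The fibroblast growth factor receptor Fgfr1 was at 1.37 ± 0.36 SE (adjusted p = 0.088).

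**Figure D5:**
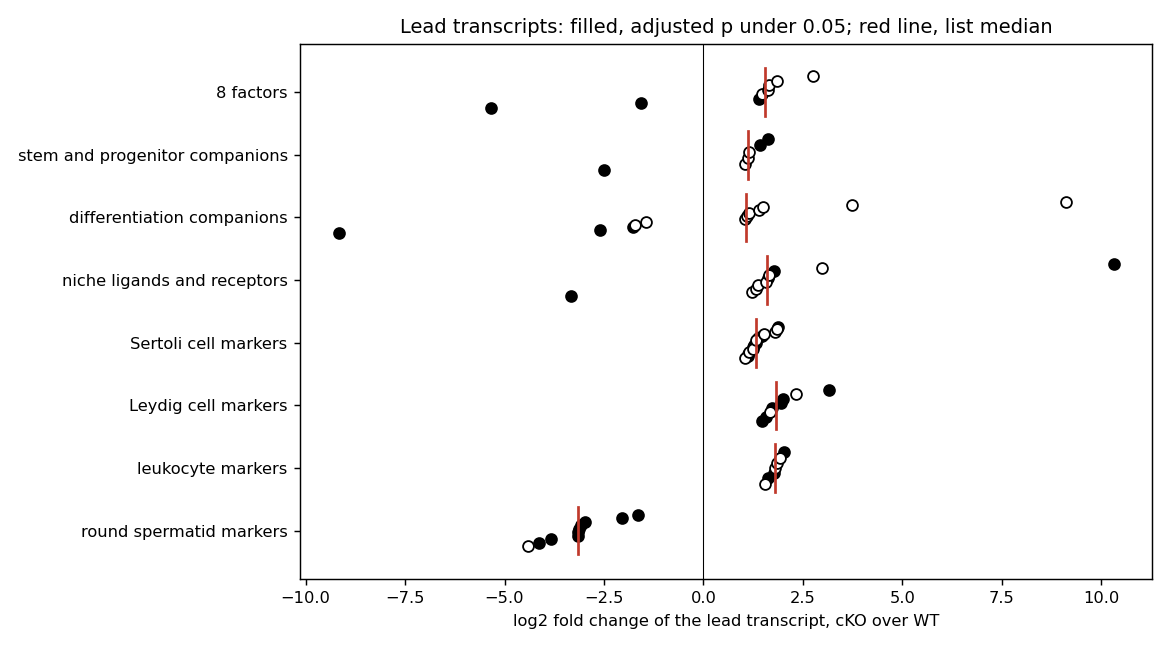
Log2 fold change of normalized counts, cKO over WT, of the lead transcript of each tested gene, by list (filled, adjusted p under 0.05; open, not; red line, list median). The 8 factors and the stem and niche lists have positive medians of 1.54, 1.13 and 1.60, with single genes below 0. The differentiation (1.07), Sertoli (1.31), Leydig (1.83) and leukocyte (1.81) lists also have positive medians, and the round spermatid list has a median of -3.14. The points beyond 9 in either direction are Nxf2, Elavl2 and Rara, whose fitted values depend on a genotype at 0. All points are transcripts the authors called, so the size of each median depends in part on their filter.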

How the data were processed

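Per the file headers, each row of the deposited table is an Ensembl transcript, with its expected count and FPKM in every library and the authors' mean normalized count (a signal), log2 fold change and p-values. Only transcripts called by the authors are in it (adjusted p of at most 0.05, absolute log2 fold change of at least 1), so others are not analysed here and the spread is estimated on called transcripts. No source used here names the aligner or counter. The submitters' processing notes name mm9, but the gene coordinates of all 8 genes equal GRCm38.

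The authors' size factors (1.238 and 1.250 for the cKO, 0.8176 and 0.8538 for the WT) were solved from their mean normalized counts, library totals from reads, length and FPKM, and the 64840 transcripts tested from the ratio of p to adjusted p. Expected counts were rounded, and the 10716 transcripts that passed filterByExpr (minimum count 10), among them all 10 described here, were fitted with edgeR 4.0.16 (glmQLFit, glmQLFTest, genotype only) in R 4.3.3, with Benjamini-Hochberg adjustment over 64840. The SE is the absolute log2 fold change over the square root of F. Alternatives used other scalings and filters, limma 3.58.1, DESeq2 1.42.0, a replicate block and left-out libraries, and summing isoforms (also with left-out libraries) and bounds with left-out libraries were added after seeing the data. Intervals are exact binomial ones, floors are 3 counts, and both cover counting error only. The members and lists were chosen with earlier results of these data known. Named are all member transcripts and, of the stem, differentiation, niche and germ cell lists, up to 4 called genes with the smallest p and the first 2 not called; the same rule was set for the somatic and spermatid marker lists, which are given as sums to keep to the members. Eomes and Elavl2 were added after their values were seen. Libraries of a genotype were not duplicates, and since the labels name no litters or cultures, the spread behind the p-values may be technical.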

Additional observations from a re-analysis of the deposited data

How the results depend on the processing

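No member changed sign under any of the 14 alternatives run. The count of member transcripts that rose, 1 with the authors' size factors, was 8 with TMM, 8 with RLE, 7 with library totals, 0 with equal Sertoli counts, 4 with DESeq2, 5 and 6 with limma on log2(FPKM + 0.1) and log2(FPKM + 1), and 0 to 7 without any one library. The count that fell, 2, was 0 with TMM, 0 with RLE, 1 with library totals, 1 with DESeq2, 1 and 1 with limma, and 0 to 2 without any one library. Where edgeR called 0, those at an unadjusted p under 0.05 were 0 higher with equal Sertoli counts, 1 lower with TMM and with RLE, and 4 higher and 2 lower without WT replicate 1 and 7 higher and 2 lower without WT replicate 2. Over the table, 1119 rose and 4436 fell. The number that rose was 3641 with TMM, 3650 with RLE, 2963 with library totals, 320 with equal Sertoli counts, 2042 with DESeq2, 2123 and 2667 with limma, and 0 to 2263 without any one library. The number that fell was 1295 with TMM, 1301 with RLE, 7397 with equal Sertoli counts, 2741 with limma on log2(FPKM + 0.1), and 0 to 6157 without any one library. Scalings by construction move all ratios together, and the causes of the other shifts were not tested. TMM and RLE take most transcripts as unchanged, which does not hold among transcripts that were all called different. Filters on low counts (none, or 1 CPM in 2 libraries) changed no member's call.

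Same-numbered libraries share only a number in the labels (correlation of their deviations 0.18). With a replicate block, 697 transcripts rose over the table, and 0 member transcripts rose and 1 fell, Dmrtb1, with 8 and 2 at an unadjusted p under 0.05, as were 10615 of the 10716 tested. Depth limits Ret and Lhx1, with under 60 expected counts in every library.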
